A study of Mus musculus with 12 samples.

Results

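The right common carotid artery of fibulin-5 knockout (KO) mice was compared with that of wild type (WT) mice, in animals whose left common carotid artery had been partially ligated 1 day earlier. The 3 arrays labelled as KO right carotid (RCA) and the 3 labelled as WT RCA were taken, 6 of the 12 arrays of the study, and the comparison ran across all 15395 genes that could be named and passed a filter on dim probes, out of 19057 with a probe. The other 6 arrays hold the ligated left carotid (LCA) of the 2 genotypes, 3 each. All 4 groups carry the strain label C57Bl/6J. Every mouse had thus been operated on, and RCA is the side that was not tied, not the artery of an unoperated animal. The sources used here do not name the knockout allele, the exons it lacks, or the age and sex of the mice. The labels number the arrays from 1 to 3 in each group without saying which come from one mouse or whether each comes from a mouse of its own. P-values therefore measure the spread between these samples, which may be partly technical.

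Fibulin-5, encoded by Fbln5, is a secreted glycoprotein of the vessel wall that binds tropoelastin, fibrillin-associated proteins and lysyl oxidase-like enzymes and helps to place elastin on microfibrils. Elastic fibres give large arteries their recoil, and mice without fibulin-5 are known for disorganised fibres and stiff, tortuous arteries. Endothelium sits on the innermost elastic layer. It is known to answer changes in flow and strain through adhesion molecules, vasoactive peptides and connexins, and smooth muscle and fibroblasts through contractile and matrix genes.

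Values are deposited probe intensities on an Illumina expression array, and a difference is KO minus WT in log2 units with its standard error (SE) from one limma fit to the 12 arrays. Adjusted p-values are Benjamini-Hochberg values over the 15395 genes with a threshold of 0.05, and unadjusted ones are named as such. Background was read as the 95th percentile of 1506 odorant and pheromone receptor probes, which lay between 96.5 and 106.6 on the 6 RCA arrays, against a median intensity of 93.6 and a lowest value of 72.4. Folds of genes near that level are compressed, and a gene above background on no array of a group has only a bound for its fold. Of the RCA arrays, WT RCA replicate 3 stood furthest from the rest. Its median correlation with the other arrays was 0.744, and 30.9% of its genes were above background. The remaining RCA arrays had 0.767 to 0.841 and 35.0% to 47.9%. Of all 12 arrays WT LCA replicate 3 stood furthest off, at 0.643 and 18.3%. It enters the spread behind every SE and p-value for RCA in the main fit. Counts of list members at an unadjusted p are small. Over all 15395 genes, 2.48% were higher and 1.8% lower in KO at an unadjusted p under 0.05, and every list count is to be read beside these shares. Without a single RCA array some count moved by 2 genes or more in 20 of 40 lists, by up to 4. The larger moves are given beside the list.

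The RNA carried endothelial markers in both genotypes. Pecam1, Cdh5, Tek and Vwf were above background on all 6 RCA arrays, with Pecam1 between 753 and 1459 in WT and between 937 and 1487 in KO. The summed intensity of 20 endothelial marker genes ran from 6964 to 7328 in WT and from 5776 to 7547 in KO. The arrays are labelled as carotid artery, and most defining markers of its other layers were at or near background. How much RNA each layer gave was not tested. Among smooth muscle markers Acta2 was bright, while Myh11, Tagln and Cnn1 stayed at 118 or below on every RCA array. Among fibroblast markers Dcn was above background on all 6 arrays, between 105.5 and 278, Pdgfra on 3, Dpt on 2 and Lum on 0. Of the adipocyte markers Fabp4 was above background on 5 arrays, at up to 311, and Plin1 and Adipoq on 0, and the macrophage markers Adgre1 and Csf1r were so on 1 array each. In such bulk RNA, fewer cells of a type and less RNA per cell cannot be told apart. Fbln5 itself had 1 probe, which was below background on all 12 arrays and failed the filter. It read 88.0, 84.9 and 87.4 in WT RCA and 97.4, 89.1 and 80.6 in KO RCA, overlapping groups whose difference without the filter was 0.03 ± 0.06 (adjusted p = 1.00). A probe at background checks nothing about the knockout.

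No gene passed the adjusted threshold in RCA, where the smallest adjusted p was 0.251 and 0.0% of genes were called. With the spread taken without WT LCA replicate 3 the smallest adjusted p was 0.0595, and with the 6 RCA arrays alone 0.121. No gene passed there either. In the main fit 659 genes were at an unadjusted p under 0.05, 4.28% of those tested. Of these, 382 were higher in KO (2.48%) and 277 lower (1.8%). About 770 would be at that level if no gene differed. The 3 KO values lay wholly above the 3 WT values for 1044 genes (6.78%) and wholly below them for 802 (5.21%). Separation in either direction has an exact two-sided p of 0.1 with 3 against 3 arrays, so many genes would show it if none differed. KO was the higher group for 51.0% of genes, the median difference was 0.00, and the 5th and 95th percentiles were -0.37 and 0.37. Differences beyond 1 log2 unit were seen for 93 genes in the higher direction and 90 in the lower. The genes named here are therefore those with the smallest p-values, given as measurements that did not pass.

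**Figure D1:**
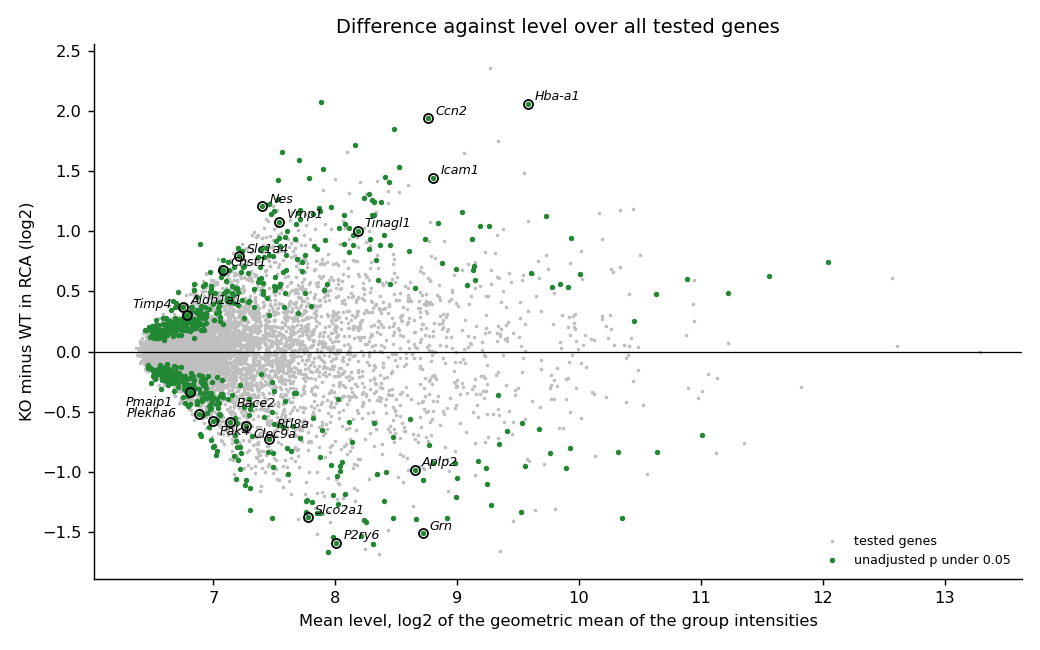
KO minus WT difference in RCA (log2, vertical axis) against the mean level of the gene (log2 of the geometric mean of the group intensities, horizontal axis) for 15395 genes, with 659 genes at an unadjusted p under 0.05 in green and the 20 with the smallest p circled. Ccn2 (1.94), Icam1 (1.44) and Hba-a1 (2.06) lie among the brighter circled genes above 0, and P2ry6 (-1.59), Grn (-1.51) and Slco2a1 (-1.37) below it.

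The gene with the smallest p was Icam1, which encodes the intercellular adhesion molecule that holds leukocytes on activated endothelium. Its intensity was 276, 250.0 and 286 in WT and 675, 702 and 843 in KO. Every KO array lay above every WT array, by more than the spread within either group, for a difference of 1.44 ± 0.20, or 2.72-fold (adjusted p = 0.251). Sele encodes E-selectin, the endothelial selectin on which leukocytes roll. It read 106, 91.5 and 106 in WT, where 1 array was above background, and 177, 331 and 548 in KO. The groups did not overlap, the KO arrays were widely spread, and the difference was 1.65 ± 0.35 (adjusted p = 0.599).

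The stretches upstream of these 2 genes are shown because both genes are textbook targets of NF-kappaB, and that of Slco2a1, the gene with the smallest p in the opposite direction, is shown for comparison. They are the 250 bases before the annotated start in RefSeq on GRCm38.p6, all on the plus strand. Icam1 is at chr9:21015690-21015939, Sele at chr1:164047984-164048233 and Slco2a1 at chr9:103008237-103008486. Capitals mark matches to GGNNNTTCC (NF-kappaB) and TGANTCA (AP-1), searched on both strands.
Icam1: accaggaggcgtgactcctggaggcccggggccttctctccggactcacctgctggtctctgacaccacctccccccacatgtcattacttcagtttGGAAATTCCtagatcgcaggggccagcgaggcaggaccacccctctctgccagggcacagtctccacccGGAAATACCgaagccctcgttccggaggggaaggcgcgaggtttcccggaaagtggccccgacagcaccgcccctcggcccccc
Sele: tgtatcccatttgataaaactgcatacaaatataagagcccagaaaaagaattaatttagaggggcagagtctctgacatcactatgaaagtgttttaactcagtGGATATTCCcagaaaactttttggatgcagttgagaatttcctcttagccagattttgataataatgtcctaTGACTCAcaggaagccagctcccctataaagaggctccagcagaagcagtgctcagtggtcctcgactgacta
Slco2a1: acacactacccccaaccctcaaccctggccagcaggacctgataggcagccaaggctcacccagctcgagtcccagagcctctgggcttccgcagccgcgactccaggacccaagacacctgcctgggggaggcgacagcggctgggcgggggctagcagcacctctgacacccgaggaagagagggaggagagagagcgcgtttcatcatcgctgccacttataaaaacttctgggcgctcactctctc
Icam1 held GGAAATTCC from 153 to 145 bases before the start and, read on the minus strand, a second match written GGAAATACC from 84 to 76. Sele held GGATATTCC from 145 to 137 bases before the start and TGACTCA from 73 to 67. The Slco2a1 window held neither motif, nor GGAATG (TEAD). GGAAATTCC of Icam1 and TGACTCA of Sele were matched on both strands at the same place, and matches of different motifs did not overlap in these windows. Of 32851 promoter windows of this length, 15.7% held the NF-kappaB motif, 6.75% the AP-1 motif and 12.6% the TEAD motif. Among the 10 higher genes with the smallest p, 9 had a promoter entry, of which 4 held the NF-kappaB motif, 2 the AP-1 motif and 3 the TEAD motif. Of the 10 lower ones 7 had an entry, of which 0 held the NF-kappaB or the AP-1 motif and 1 the TEAD motif. A gene was counted if any of its windows held the motif, while the shares are over single windows. Counts and shares are thus in unlike units, and a gene with several starts had several chances. The matches are of letters, not measured binding.

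Other adhesion and NF-kappaB genes were divided in direction. Of 21 tested genes of leukocyte adhesion and recruitment, 11 had a higher and 10 a lower value in KO, with a median of 0.01 against 0.00 over all genes. Icam1 and Sele were the 2 higher genes at an unadjusted p under 0.05, against 2.48% of all genes. The 1 lower one, against 1.8%, was the junctional adhesion molecule gene Jam2 (-0.55 ± 0.19, with -0.48 to 0.06 from its other 5 probes). Jam2 was not at that level without WT RCA replicate 3 or KO RCA replicate 3. Vcam1 and Selp, chosen after their values were seen as the usual companions of Icam1, differed by 0.33 ± 0.33 and -0.36 ± 0.27. Vcam1 overlapped between the groups, with 369, 247 and 561 in WT and 467, 437 and 502 in KO, and its other 3 probes gave 0.24 to 0.87. Of 22 genes of the NF-kappaB pathway, 12 were higher and 10 lower with a median of 0.05. Past an unadjusted p of 0.05 were 3, all higher, against 2.48% of all genes, and 0 without WT RCA replicate 2. The 3 include Tnfaip3, a brake on the pathway that was at background in WT and at least 1.14-fold higher in KO (unadjusted p = 0.0279). Nfkbia, encoding the inhibitor IkappaB-alpha and also chosen after its values were seen, read 187, 174 and 180 (WT) and 232, 241 and 223 (KO), a difference of 0.37 ± 0.19 whose other probe gave -0.05.

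**Figure D2:**
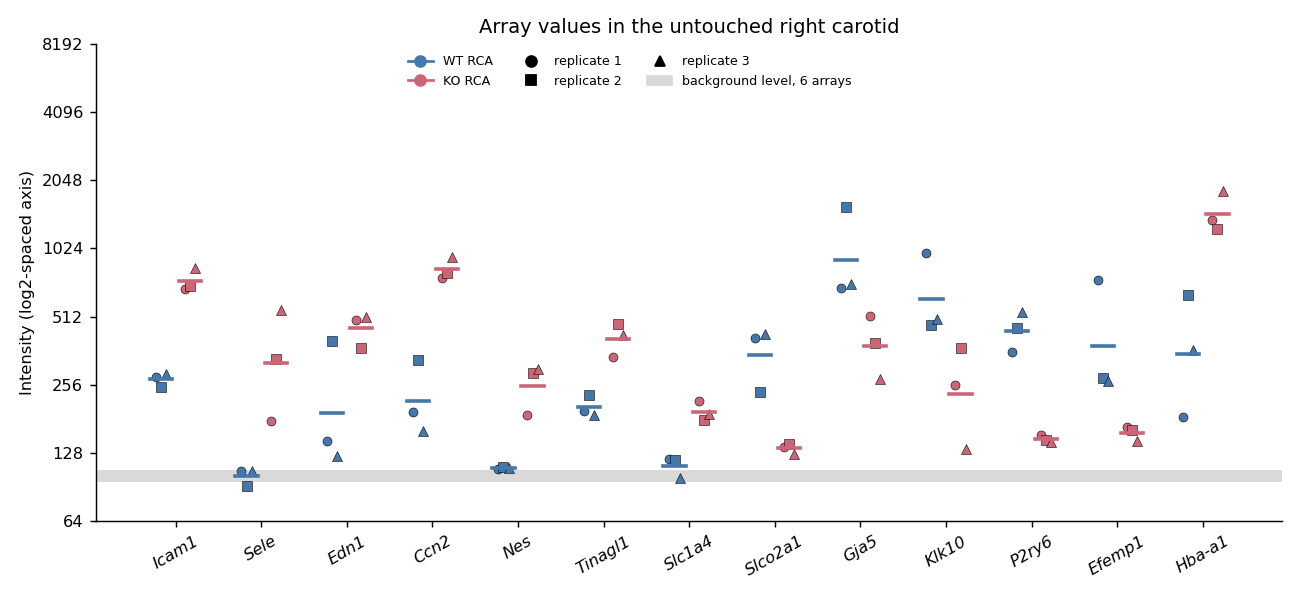
Intensity on each RCA array (vertical axis, spaced by log2) for 13 genes, WT in blue and KO in red, with a symbol for each replicate number, bars at the geometric mean of 3 arrays and a grey band for the background level. Of these genes, Edn1 alone overlaps between the groups, and the WT values of Sele, Nes and Slc1a4 lie near the band.

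Genes that endothelium sets by shear stress differed in both directions. Slco2a1 encodes the prostaglandin transporter that clears prostaglandins from the circulation. It read 413, 238 and 427 in WT and 136, 140.3 and 126 in KO, non-overlapping groups that differed by -1.37 ± 0.21, or 2.59-fold (adjusted p = 0.251). Its 3 probes gave -1.46, -1.37 and -1.05, and it passed the adjusted threshold only when WT RCA replicate 2 was left out (adjusted p = 0.00256), among the settings tried. Gja5 encodes connexin 40, the gap junction protein of arterial endothelium. It read 688, 1558 and 714 in WT and 513, 393 and 270.3 in KO, with no overlap and a difference of -1.27 ± 0.34 (adjusted p = 0.956). Klk10, a kallikrein-related gene, read 977, 472 and 499 in WT and 256, 372 and 134 in KO. Its groups were also apart, by -1.39 ± 0.37.

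Edn1, the precursor of the vasoconstrictor endothelin-1, read 145, 398 and 124 in WT and 497, 374 and 508 in KO. WT replicate 2 lay inside the KO range, so the groups overlapped around a difference of 1.24 ± 0.41 (unadjusted p = 0.014). Without that array the difference was 1.76. Pdgfb, encoding a platelet-derived growth factor chain, differed by 0.55 ± 0.17, and Lmo4, a LIM domain regulator, by 0.94 ± 0.35, its other probe giving 0.22. Klf2 and Klf4, transcription factors induced by steady flow and chosen after their values were seen, overlapped between the groups: Klf2 read 180.0, 203 and 185 in WT and 192, 161 and 271 in KO (0.10 ± 0.16), and Klf4 differed by -0.43 ± 0.29, with -0.62 to 0.02 from its other probes. Of the 26 tested members of the shear-responsive list, 12 were higher and 14 lower, with a median of -0.07. Past the unadjusted threshold were 7 higher and 3 lower genes, against 2.48% and 1.8% of all genes. It was 3 and 3 without WT RCA replicate 3, and 6 and 5 without KO RCA replicate 1. This list was compiled with earlier results of these arrays known.

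Among vasoactive genes, 11 of 24 had higher values in KO and 13 lower, with a median of -0.00. Edn1 and Ddah1 were the 2 higher genes at an unadjusted p under 0.05, against 2.48% of all genes, and neither was so without WT RCA replicate 1. Ddah1, which breaks down an endogenous inhibitor of nitric oxide synthase, differed by 1.17 ± 0.43. Its KO arrays read 748, 165 and 259.8 against 129, 148 and 148 in WT, so that 1 array carried much of the distance. Calcrl, the calcitonin receptor-like receptor, differed by -0.35 ± 0.11. Procr, encoding the endothelial protein C receptor, read 674, 766 and 335 in WT and 1172, 1323 and 1152 in KO, groups that were apart by 1.12 ± 0.37. Plat, tissue plasminogen activator, differed by 0.75 ± 0.23, while its other probe gave -0.07. These were the 2 genes of 16 in coagulation and fibrinolysis at an unadjusted p under 0.05, against 2.48% of all genes in the higher direction. Of the 16, 10 had higher values in KO.

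Ccn2, encoding the matricellular protein connective tissue growth factor, had the largest difference among the endothelial and matrix genes named here. It read 193, 328 and 160.1 in WT and 756, 797 and 943 in KO. The lowest KO array was far above the highest WT array, and the difference was 1.94 ± 0.30, or 3.83-fold (adjusted p = 0.256). Its other probe gave 1.76. Ccn2 is a shared target of TGF-beta and of the mechanosensitive coactivator YAP. Tgfb2, the ligand TGF-beta 2, read 163, 265 and 129 in WT and 299, 390.4 and 409 in KO, apart by 1.03 ± 0.25 (adjusted p = 0.896). Thbs1, encoding thrombospondin-1, which can activate latent TGF-beta, read 125, 127 and 94.1 in WT and 250.4, 317 and 239 in KO. Every KO value lay above every WT value, by 1.22 ± 0.36.

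The wider lists around Ccn2 were less one-sided. Of 26 TGF-beta ligands, receptors and targets, 13 were higher and 13 lower with a median of -0.00. At an unadjusted p under 0.05, 3 were higher (Ccn2, Tgfb2 and Thbs1) and 1 lower, against 2.48% and 1.8% of all genes. The lower one was the receptor gene Tgfbr2, at 213, 157 and 1236 in WT and 122, 122 and 112 in KO, a difference of -1.54 ± 0.62 that was -0.62 without WT replicate 3 and was not at that level without any 1 of the KO arrays; its other probes gave -0.10 and -0.04. Of 28 YAP and TEAD targets, 22 had a higher value in KO, against 51.0% of all genes, with a median of 0.06. Past an unadjusted p of 0.05 were 2, Ccn2 and Tgfb2, against 2.48% of all genes. With single RCA arrays left out, 17 to 20 of the 28 were higher. Ccn1, the close relative of Ccn2 and named after its values were seen, overlapped between groups at 0.49 ± 0.74, with a WT spread of 264 to 2030. Of 29 immediate early genes, which transcription factors of the Fos, Jun, Egr and Klf families make up in large part, 23 were higher and 6 lower with a median of 0.11. Past the unadjusted threshold were 6 higher and 0 lower genes, against 2.48% and 1.8% of all genes. Without KO RCA replicate 3, 18 were higher and 11 lower, with 2 and 0 past it; without KO RCA replicate 2 there were 3 and 0 past it, and without WT RCA replicate 3 there were 3 and 1. Among them Myc was at background in WT and at least 1.52-fold higher in KO with 286 on KO replicate 1 and 116 and 109 on the other KO arrays, while its other probe gave 0.10. Fos and Fosb were also at background in WT and at least 1.06-fold and 1.05-fold higher in KO, and the Fosb groups overlapped. Klf6 differed by 0.53 ± 0.22. Ccn2, already counted in the TGF-beta and YAP lists, is another of the 6. This list too was compiled with earlier results of these arrays known.

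Nes encodes nestin, an intermediate filament protein of progenitor and proliferating cells, known also in vessels. It was even in WT, at 109, 111 and 110.0, close to background, and read 187, 289 and 301 in KO. The groups were apart by 1.21 ± 0.18 (adjusted p = 0.251), its other probe gave 0.32, and it passed only when KO RCA replicate 1 was left out (adjusted p = 0.0356). Of 15 intermediate filament genes it was the only one at an unadjusted p under 0.05, with 3 higher and 1 lower so without KO RCA replicate 2. Tinagl1, a matricellular protein of basement membranes, read 196, 231 and 188 in WT and 341, 474 and 424 in KO. All KO values were above all WT values, by 1.00 ± 0.15 (adjusted p = 0.251), and its other probe gave 0.69. Among 24 basement membrane genes 14 were higher and 10 lower, with a median of 0.04. Higher at an unadjusted p under 0.05, against 2.48% of all genes, were Tinagl1 and the laminin gene Lamb1. Lamb1 was at background in WT and at least 1.15-fold higher in KO. Without WT RCA replicate 1 there were 2 higher and 2 lower at that level.

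Among contractile genes, Acta2, encoding smooth muscle actin, read 407, 403 and 287 in WT and 542, 572 and 702 in KO, apart by 0.74 ± 0.18 (adjusted p = 0.896). Its 6 probes ran from -0.00 to 1.89; 2 of them were close to background. Tpm1, an actin-binding tropomyosin, read 208, 261 and 252 in WT and 374, 539 and 510.5 in KO. Those groups were apart by 0.97 ± 0.25, with 0.61 and 1.55 from its other probes. Cald1, caldesmon, differed by 1.15 ± 0.42, with its other 4 probes from 0.10 to 0.52. Tagln was at background in WT and at least 1.05-fold higher in KO. These were the 4 of 28 contractile genes at an unadjusted p under 0.05, all higher, against 2.48% of all genes, and 20 of the 28 were higher with a median of 0.05, against 51.0% of all genes. Without WT RCA replicate 3, 3 were higher and 2 lower at that level, and without KO RCA replicate 3, 2 were higher and 0 lower. The smooth muscle markers Myh11 and Cnn1 were at or near background in both groups, and whether the share of smooth muscle RNA has a part in these values was not tested.

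The elastic fibre genes include the partners of the deleted protein. Of 24 tested, 13 were higher and 11 lower in KO with a median of 0.02, and 1 reached an unadjusted p under 0.05 (2 without WT RCA replicate 3). This was Efemp1, encoding fibulin-3 of the same family, at 741, 275 and 266 in WT and 166, 162 and 145 in KO. The groups did not overlap and differed by -1.27 ± 0.38 (adjusted p = 1.00), and without WT replicate 1, the brightest, by -0.78. Ltbp4, a latent TGF-beta binding protein that works with fibulin-5 in fibre assembly, read 522, 937 and 564 in WT and 589.7, 510.5 and 364 in KO, overlapping groups that differed by -0.44 ± 0.27. Its relative Ltbp1 differed by 0.28 ± 0.17, but its other 5 probes gave -0.07 to -0.02. Emilin1, a glycoprotein of the elastin and microfibril interface, was above background on 2 WT arrays and 0 KO arrays. Lox, a cross-linking enzyme and named after its values were seen, differed by -0.31 ± 0.38. Eln, elastin itself, also named in that way, read 281, 634 and 390.4 in WT and 676, 1189 and 197 in KO. Its spread within KO exceeded the difference between groups, 0.40 ± 0.70, which was -0.17 without KO RCA replicate 2.

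Collagen genes were likewise balanced. Of 27 fibrillar collagens and processing genes, 12 were higher and 15 lower with a median of -0.02, and 1 was at an unadjusted p under 0.05. Col1a2, a chain of type I collagen, read 131, 166 and 148 in WT and 106, 119 and 97.1 in KO, apart by -0.47 ± 0.17, and 0 collagen genes were lower at that level without WT RCA replicate 3 or KO RCA replicate 1 or 3. It is shared with the fibroblast markers, of which 7 of 17 were higher and 10 lower, and where Clec3b, encoding tetranectin, differed by -1.38 ± 0.49 with 297, 762 and 684 in WT and 238, 292 and 126 in KO. Without WT RCA replicate 2 or 3, or KO RCA replicate 3, 0 fibroblast markers were at that level. Among metalloproteinases and inhibitors, 12 of 25 were higher, and 2 inhibitors were higher at an unadjusted p under 0.05, against 2.48% of all genes. Timp4 differed by 0.30 ± 0.06 (adjusted p = 0.541) and Timp3, which is bound in the matrix, by 0.64 ± 0.25. Leaving out WT RCA replicate 1 gave 2 higher and 2 lower genes of this list at that level.

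**Figure D3:**
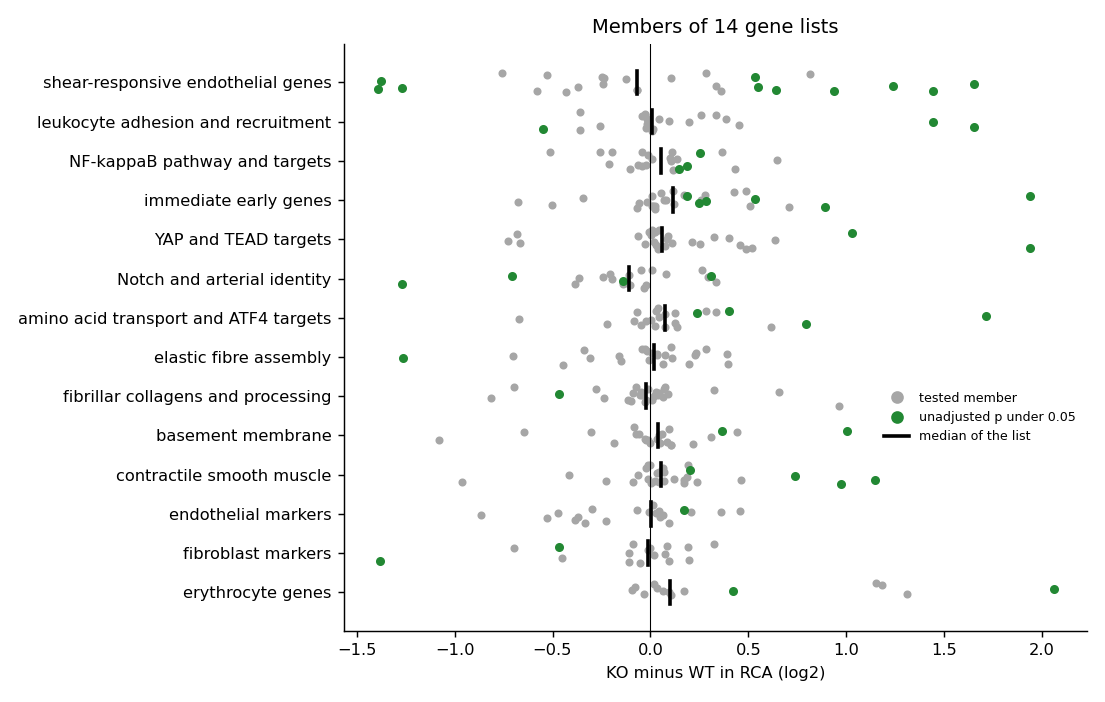
KO minus WT difference in RCA (log2, horizontal axis) of each tested member of 14 gene lists (rows), with members at an unadjusted p under 0.05 in green and a bar at the median of the list. Medians lie between -0.11 for Notch and arterial identity and 0.11 for immediate early genes, and the green points of the shear-responsive list lie on both sides of 0.

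Notch and arterial identity genes had the lowest median of the lists drawn, -0.11, with 6 of 21 higher and 15 lower, where 51.0% of all genes were higher. Against 2.48% and 1.8% of all genes, 1 was higher at an unadjusted p under 0.05, the Notch target Hey1 (0.31 ± 0.12), and 3 were lower. Besides Gja5 these were Ephb4, the ephrin receptor that marks veins, at 502, 513 and 356 in WT and 302, 256 and 272 in KO (-0.71 ± 0.26), and Notch2, at background in KO. With single RCA arrays left out, 14 to 16 of the 21 were lower. Endothelial markers had a median of 0.00, with 10 higher and 10 lower and differences from -0.87 to 0.46. The 1 member at an unadjusted p under 0.05 was Flt1, a higher one that was at background in WT. Eng, also higher, differed by 0.21 ± 0.09 with groups apart, and Pecam1 and Vwf overlapped between the groups. Among the lower ones were Tek (-0.53 ± 0.28) and Cdh5 (-0.30 ± 0.14, with -0.52 from its other probe), both with overlap. Cldn5, chosen after its values were seen, was lower too (-0.87 ± 0.48, groups apart). Without WT RCA replicate 1, or KO RCA replicate 1 or 3, there were 2 lower endothelial markers at an unadjusted p under 0.05. Without KO RCA replicate 3 there were 2 higher ones as well. Whether the share of endothelial RNA has a part in the Gja5 and Slco2a1 values was not tested.

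Several genes of amino acid and sugar handling had higher values in KO without passing. Slc1a4, a neutral amino acid transporter, read 120.4, 118 and 99.4 in WT and 216, 179 and 190.2 in KO. All KO arrays exceeded all WT arrays, by 0.79 ± 0.12 (adjusted p = 0.256). Atf5, a stress-induced transcription factor of the ATF4 pathway, read 141, 140.1 and 139 in WT and 176, 505 and 1086 in KO. The WT arrays were nearly equal and the KO arrays widely spread around a difference of 1.71 ± 0.54. Of 23 genes of amino acid transport and ATF4 targets, 17 were higher and 6 lower with a median of 0.07. Past the unadjusted threshold were 4 higher and 0 lower, against 2.48% and 1.8% of all genes. The remaining pair were the serine pathway genes Psat1, at background in WT, and Shmt2, whose other probe gave 0.02; 2 were so without KO RCA replicate 2. Slc2a1, the glucose transporter GLUT1, read 127, 132 and 133 in WT and 228, 193 and 218 in KO, apart by 0.70 ± 0.16 (adjusted p = 0.78). Of the 22 genes of glycolysis and hypoxia it belongs to, 8 were higher and 14 lower, among them Hk1, hexokinase, at -0.38 ± 0.13, whose other probe gave -0.00 and which was not at that level without WT RCA replicate 3 or KO RCA replicate 1.

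The 10 higher genes with the smallest p also included the following. Chst1, a carbohydrate sulfotransferase, read 108, 112 and 100.5 in WT and 177, 158 and 179 in KO, apart by 0.68 ± 0.11 (adjusted p = 0.275). Vmp1, a membrane protein of the endoplasmic reticulum needed for autophagy, differed by 1.08 ± 0.18, with its other 4 probes from 0.10 to 0.83. Aldh1a1, a retinaldehyde dehydrogenase, was at background in WT and at least 1.21-fold higher in KO.

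The lower genes with the smallest p had diverse known roles. P2ry6, a receptor for extracellular UDP that acts in vascular inflammation, read 357, 455 and 535 in WT and 153, 146 and 144 in KO. The KO arrays were tightly grouped below every WT array, by -1.59 ± 0.30, or 3.00-fold (adjusted p = 0.367). Grn encodes progranulin, a secreted and lysosomal protein. It read 998, 384 and 830.2 in WT and 258, 236 and 227 in KO, apart by -1.51 ± 0.33 (adjusted p = 0.742). Psap, encoding prosaposin, the precursor of lysosomal saposins, is not among the 10 lower genes of smallest p and was named because its probes agreed. It read 1059, 1830.1 and 2316 in WT and 1155, 889.6 and 769.8 in KO. WT replicate 1 lay inside the KO range, and the difference was -0.83 ± 0.32, with -1.17 from its other probe.

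Aplp2, a member of the amyloid precursor family, read 543, 689.9 and 471 in WT and 319, 260.3 and 276 in KO, apart by -0.98 ± 0.18 (adjusted p = 0.344), but its other probe gave -0.05. Pak4, a kinase of the cytoskeleton, read 180.4, 146 and 142 in WT and 100.3, 108 and 105 in KO, where 2 arrays were above background. Its difference was -0.57 ± 0.10. Plekha6 was above background on no KO array and at least 1.38-fold lower there. Bace2, a protease of amyloid precursor-type proteins, differed by -0.58 ± 0.11, with its other 3 probes from -0.33 to 0.41. The proapoptotic gene Pmaip1, the retrotransposon-derived gene Rtl8a and Clec9a, a lectin of dendritic cells, differed by -0.33 ± 0.06, -0.72 ± 0.14 and -0.61 ± 0.13, and other probes gave -0.27 to -0.07, -0.19 and 0.00. Hspa5, the chaperone BiP of the endoplasmic reticulum, was named from the list of unfolded protein response and heat shock genes. It read 1129.7, 470.4 and 668 in WT and 311, 318 and 405 in KO, apart by -1.05 ± 0.29 (adjusted p = 0.956).

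Haemoglobin transcripts had higher mean values in KO without passing. Hba-a1, an alpha-globin gene, read 185, 636 and 365 in WT and 1362, 1244 and 1830.1 in KO, groups that were apart by 2.06 ± 0.39, or 4.17-fold (adjusted p = 0.367). Hbb-bt, a beta-globin gene, read 328, 1076 and 772 in WT and 528, 1830.1 and 3100.5 in KO, which overlapped around 1.15 ± 0.68. Of 14 erythrocyte genes, 11 were higher and 3 lower with a median of 0.10. Hba-a1 and Slc4a1 were higher at an unadjusted p under 0.05, against 2.48% of all genes, or 5 genes without KO RCA replicate 1. The summed intensity of the 14 ran from 1946 to 3848 in WT and from 3492 to 11216 in KO, overlapping ranges. Whether blood left in the arteries has a part in any other difference was not tested.

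Separate probes of one gene are further readings of the same RNA. Of 6412 genes with at least 2 kept probes, 16 had all probes higher in KO at an unadjusted p under 0.05 (0.25%) and 12 had all lower (0.187%). The higher ones included Ccn2, Rasl11b, Tpm1, Anxa3, Tinagl1, Nes, Ctps and Klf6, and the lower ones Slco2a1, Cytl1, Gja5, Psap and Serpina1b. All 4 probes of Gja5 lay between -1.29 and -1.08. Rasl11b, a small GTPase of the Ras family, gave 1.43 and 1.06, and Ctps, which makes CTP, gave 0.94, 0.81 and 0.55. Cytl1, a secreted cytokine-like protein, read 2848, 2392 and 1109 in WT and 970.4, 1015 and 436 in KO. WT replicate 3 was the lowest WT array and still above KO, with differences of -1.38 and -1.35 from its probes.

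**Figure D4:**
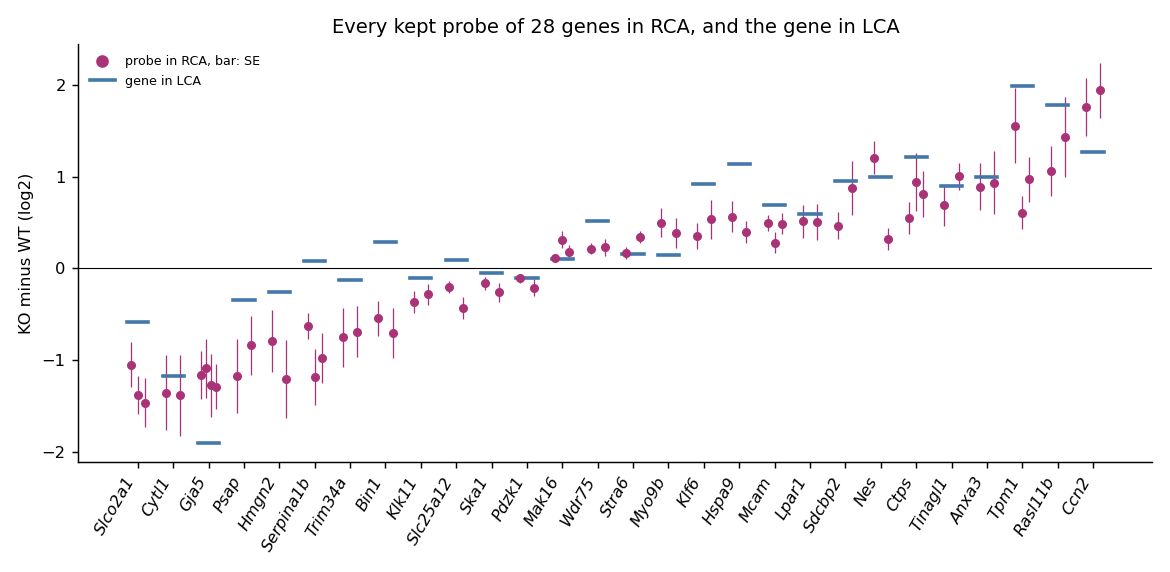
KO minus WT difference (log2, vertical axis) in RCA of every kept probe (points, bars SE) of the 28 genes whose probes all reached an unadjusted p under 0.05 in 1 direction, ordered by their median, and of the gene in LCA (blue line). The LCA line lies above 0 for all 16 higher genes and below 0 for 9 of the 12 lower genes.

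On the ligated side, KO and WT were compared on the other 6 arrays, which include WT LCA replicate 3 and may come from the same mice. Their KO minus WT difference did not enter the choice of these genes. Their spread did, through the shared fit, and their level did, through the dim filter and the choice of probe. A gene picked for a small p in RCA thus tends to have a small spread in LCA, which favours a small p there. In LCA 1 gene passed after adjustment (0.0065%), Schip1, a binding partner of schwannomin, at 1.37 ± 0.12 (adjusted p = 0.00862). In RCA it differed by 0.56 ± 0.12 (adjusted p = 0.599), with 0.08 from its other probe. At an unadjusted p under 0.05, 1059 genes (6.88%) were called in LCA. Of the 382 genes higher at that level in RCA, 291 (76.2%) were also higher in KO in LCA, where 50.1% of all genes higher in RCA were. Of the 277 lower genes, 146 (52.7%) were also lower in LCA, against 55.7% of all genes lower in RCA. With any 1 RCA array left out, the first share ran from 68.2% to 82.9% and the second from 47.7% to 55.3%. Both lists held 142 genes, 21.5% of the RCA list and 13.4% of the LCA list, and 130 of them had the same sign.

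Among the 10 higher genes with the smallest p in RCA, all were higher in LCA too. Of these, 8 had an unadjusted p under 0.05 there, against 6.88% of all genes in either direction. The shared spread favours this count and the further counts at that level below. Ccn2 differed by 1.27 ± 0.30 in LCA, Nes by 1.00 ± 0.18, Tinagl1 by 0.90 ± 0.15, Slc1a4 by 0.70 ± 0.12 and Chst1 by 0.78 ± 0.11. Icam1 was smaller on that side, at 0.47 ± 0.20, as was Hba-a1 at 0.45 ± 0.39. Of the 16 genes with all probes higher in RCA, 16 were higher in LCA, 13 at that level, with Tpm1 at 1.98 ± 0.25 and Rasl11b at 1.77 ± 0.43. Among the 10 lower genes 8 were lower in LCA, 3 at that level. Slco2a1 differed there by -0.58 ± 0.21, P2ry6 by -0.51 ± 0.30 and Grn by -0.39 ± 0.33, while Pak4 and Rtl8a were at 0.18 ± 0.10 and 0.09 ± 0.14. Gja5, lower by all 4 probes in RCA, differed by -1.90 ± 0.34 in LCA (adjusted p = 0.129).

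The difference between the sides was tested as an interaction, LCA minus RCA. No gene passed (0.0%), the smallest adjusted p was 0.905, and 546 genes (3.55%) had an unadjusted p under 0.05. Of the 10 lower genes 8 were among these and of the 10 higher genes 3, counts that the choice of genes by their RCA values favours, since RCA enters the interaction. Icam1 had an interaction of -0.97 (unadjusted p = 0.0063), Slco2a1 of 0.79 (unadjusted p = 0.0218) and Tpm1 of 1.01 (unadjusted p = 0.0166). Whether these genes differ between the sides was thus not settled by the adjusted test.

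**Figure D5:**
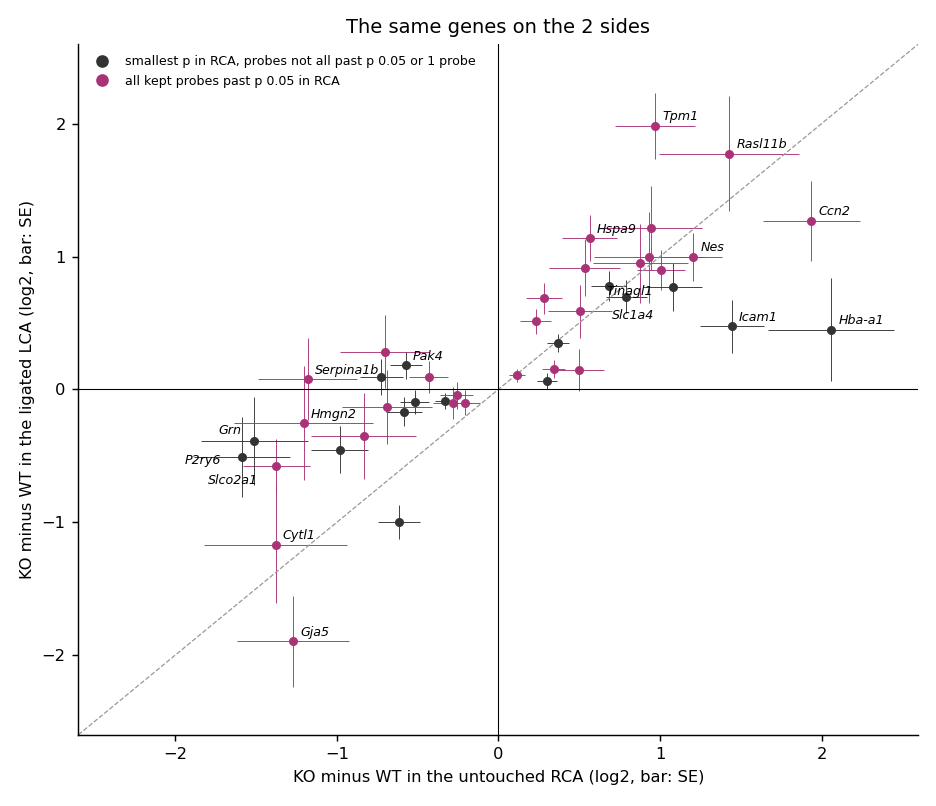
KO minus WT difference in LCA (log2, vertical axis) against that in RCA (log2, horizontal axis), with SE bars, for the 20 genes with the smallest p in RCA and the 28 whose probes all agreed; the dashed line marks equal differences. Genes above 0 in RCA are above 0 in LCA for all those drawn, while those below 0 in RCA lie on both sides of 0 in LCA.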

How the data were processed

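Per the labels' protocols, RNA was extracted with a Qiagen miREasy kit, checked on a Bioanalyser and amplified to biotinylated cRNA for Illumina arrays. The authors deposited linear intensity values for 45281 probes; sorted, these agree between arrays to within 0.564%, and no source used here names the scanner software or the normalization. Probes were named through the platform annotation (34885 with 1 symbol, 18 with several, 10378 with none), and the matched promoters came from RefSeq. Named probes had to reach the array median on 3 or more arrays (25796 did), and the kept probe with the highest mean log2 intensity stood for its gene. Limma 3.58.1 in R 4.3.3 fitted 4 group means to log2 intensity of 12 arrays (lmFit and eBayes, 8 residual degrees of freedom), with two-sided tests. A fold bound set the bright group's mean against the dim group's mean of, per array, the higher of the background level and the probe.

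Members and lists were chosen with earlier results of these data known. Named genes were Fbln5 and, in each direction, the 10 genes of smallest p (passing over predicted genes, clones and receptors). Added were up to 4 genes of each of 40 lists by p, defining markers, and up to 8 genes in each direction whose probes agreed. Any other named gene was chosen after its values were seen, whether or not this is said beside it. Same-numbered KO and WT arrays of RCA had correlated deviations of -0.01, 0.02 and -0.00, so the numbers did not pair them. An exact test of 3 against 3 arrays cannot go below p = 0.1 and was not used. The number of arrays limits the precision. Tested on simulated data for KO RCA against WT RCA with 15395 genes, the fit recovered 45.6% of genes changed by 0.5 log2 units, 76.0% at 1, 90.8% at 2 and 96.8% at 3, with 200 changed genes in each of 5 runs and 45 false calls in all. The simulated noise was independent and normal, with each gene's estimated spread. Full log2 shifts were added to genes drawn at random, those at background included, where real folds are compressed. These rates are therefore not the power of the real comparison. Alternatives covered the dim filter, the probe rule, blocks, weights, scaling and leaving out each array.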

Additional observations from a re-analysis of the deposited data

How the results depend on the processing

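In RCA, 0 genes passed adjusted p = 0.05 in limma with the settings of the report and under every alternative that kept all 6 RCA arrays, with 659 genes at an unadjusted p under 0.05 with all 12 arrays and 1 probe a gene and 1115 when every kept probe was tested. Leaving out single arrays gave 0 to 3 genes: Mrps15 without WT RCA replicate 1, Crkl, Slco2a1 and Ythdf3 without WT RCA replicate 2, none without WT RCA replicate 3, Dusp8 and Nes without KO RCA replicate 1, Mcts1 without KO RCA replicate 2 and Sppl2a without KO RCA replicate 3. With the replicate number as a fixed replicate block 0 genes passed, with 623 at an unadjusted p under 0.05. A random block joined RCA and LCA arrays of the same genotype and number, a pairing that the labels do not state, and 0 passed. Neither block changed a call. The share of higher genes among unadjusted calls was 58.0%, and 39.8%, 45.6% and 40.0% without WT RCA replicates 1, 2 and 3, 69.1%, 67.3% and 68.8% without KO RCA replicates 1, 2 and 3, and 50.5% with array weights. In LCA 1 gene passed, against 15 with the mean over probes and 11 with every probe. It was 2 with array weights, 0 with a trended robust prior and 1 to 2 with single RCA arrays left out. Without WT LCA replicate 3 it was 14, and that setting changes the LCA differences as well as the spread. The interaction had 0 genes, against 0 to 2 with single RCA arrays left out. It had 3 without WT LCA replicate 3, where its differences change too. Of 2178 recomputed differences of the named genes 2175 kept their direction; with single arrays left out Klf2 ran from -0.10 to 0.27 (below 0 without KO RCA replicate 3), Ccn1 from -0.11 to 1.36 (below 0 without WT RCA replicate 2) and Eln from -0.17 to 1.12 (below 0 without KO RCA replicate 2). Signals close to the floor limit what small differences can show.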

Other observations

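Further gene lists were counted in KO against WT RCA. Cell cycle genes had 16 of 22 higher, where 51.0% of all genes were, with a median of 0.06 and 0 at an unadjusted p under 0.05. Interferon-stimulated genes had 7 higher and 15 lower of 22, with a median of -0.03 and 1, a lower one, at that level, or 0 without any 1 of the KO RCA arrays. Of 61 ribosomal protein genes 30 were higher and 31 lower, and of 74 genes of oxidative phosphorylation 40 and 34. Of 26 integrin and focal adhesion genes 14 were higher and 12 lower, with 1 higher and 3 lower at an unadjusted p under 0.05, against 2.48% and 1.8% of all genes; 1 was lower at that level without WT RCA replicate 1 or KO RCA replicate 3. Among these, Lims1, an adaptor of focal adhesions, differed by 0.86 ± 0.28, with 0.05 from its other probe, and Itga9, an integrin chain, by -0.66 ± 0.23, with -0.05 from its other probe. Txnrd1, thioredoxin reductase, was the only one of 22 antioxidant genes at an unadjusted p under 0.05 (1.00 ± 0.37).

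Of the 30 tested genes nearest to Fbln5 on its chromosome, 15 on each side in the RefSeq order, 14 were higher and 16 lower in KO with a median of -0.01. Of these, 2 were at an unadjusted p under 0.05, where 4.28% of all genes were. Chga was at background in WT and above it on 1 KO array, and Atxn3 differed by -0.37 ± 0.16, with -0.08 and 0.02 from its other probes.

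Xist, transcribed from the inactive X, was at background on all 6 RCA arrays by the brightest of its 4 probes. The Y-linked gene Eif2s3y read 122, 135 and 94.8 in WT and 123, 315 and 809 in KO, with a difference of 1.44 ± 0.53 (unadjusted p = 0.0222), and -0.02 from its other probe.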
